A study of Homo sapiens with 4 samples.

Results

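The genes described here encode the machinery through which a cell senses interferons: the receptor chains IFNAR1, IFNAR2, IFNGR1 and IFNGR2, the kinase JAK1, and the transcription factors STAT2, IRF9, IRF7 and IRF1. These 9 genes were taken by name from a table of 60649 gene rows, of which 18771 were tested, and all 9 passed the filter on low counts. The RNA came from FaDu, a cell line founded from a squamous tumour of the human hypopharynx, and was read by sequencing. One group overexpressed TINCR carrying HA and FLAG tags (TINCR-HA-FLAG, 2 libraries) and the other carried an empty vector (2 libraries). Both groups were the same line, grown in MEM alpha with Glutamax and fetal bovine serum. The series calls its replicates technical, so every p-value here speaks only of the spread among these 4 libraries, which may be technical. The comparison asks how expression of these genes differs when tagged TINCR is overexpressed.

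Type I interferons bind a receptor made of IFNAR1 and IFNAR2, and interferon gamma binds one made of IFNGR1 and IFNGR2. JAK1 serves both receptors together with a further Janus kinase. At the type I receptor the kinases phosphorylate STAT proteins. STAT2, a STAT partner and the DNA-binding protein IRF9 then form the complex ISGF3, which binds interferon-stimulated response elements (ISRE). Interferon gamma acts mainly through STAT dimers at gamma-activated sites (GAS), and IRF1 is a classical target of that arm. IRF7 is itself induced by type I interferon and, once phosphorylated, drives interferon genes, which closes a positive loop. STAT2, IRF9, IRF7 and IRF1 are thus both parts and known targets of the pathway.

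Of the 9 genes, IRF7 was the one that passed the test: it was 1.79-fold higher with TINCR-HA-FLAG than with the empty vector. No receptor chain passed the test, and neither did JAK1, STAT2, IRF9 or IRF1. One of 9 is 11.1%, beside 0.549% of all genes tested that were called in either direction and 0.453% called higher (edgeR quasi-likelihood test, Benjamini-Hochberg adjusted p under 0.05). The list was drawn up with earlier results of these data known, so this share is a description. Of the 9 log2 fold changes, 6 were positive and 3 negative, with a median of 0.12 against 0.0042 over all genes tested. The 2 groups did not overlap for 4 of the 9 genes (44.4%), as for 39.6% of all genes tested, so that share was near the background. Of these, 3 were higher and 1 lower with TINCR-HA-FLAG, where 21.7% and 17.9% of all genes tested were.

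**Figure D1:**
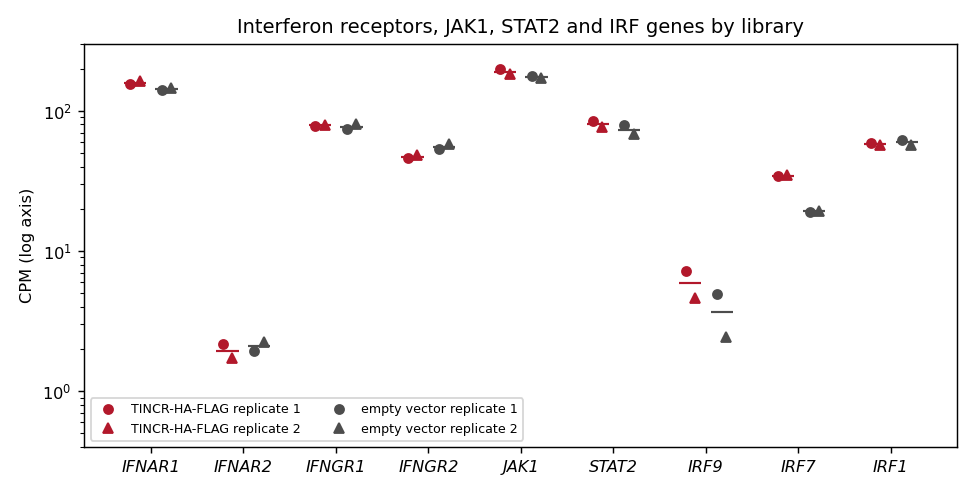
CPM (log axis) of the 9 genes in each library, TINCR-HA-FLAG in red and the empty vector in grey, with a horizontal line at each group's mean of 2 libraries. IRF7 lies at 34.0 and 34.8 CPM with TINCR-HA-FLAG and at 19.0 and 19.4 CPM with the empty vector, while IRF9 and IFNAR2 have the lowest levels and IRF9 the widest spread.

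The construct and the cell type were checked first. With TINCR-HA-FLAG, TINCR itself had 1921 and 2943 counts, against 68 and 64 counts with the empty vector (log2 fold change 4.93, standard error 0.17, edgeR adjusted p = 7.2e-07). These counts do not separate the construct from the cell's own gene. Total counts were 18151424 and 22331602 with TINCR-HA-FLAG and 17069533 and 17315648 with the empty vector. Levels are given as CPM, counts scaled to each library's counts in the tested genes with TMM factors, and 3 counts correspond to 0.135 to 0.177 CPM, a limit that covers counting error only. All 11 markers of squamous epithelium passed the filter, and their summed level was 7176 and 8553 CPM with TINCR-HA-FLAG against 8483 and 9776 CPM with the empty vector. Most of this sum came from KRT5 and KRT17. Of the 11 markers, 9 had negative and 2 positive log2 fold changes. The groups did not overlap for 7, 6 lower and 1 higher with TINCR-HA-FLAG, beside 17.9% and 21.7% of all genes tested. Among the markers the basal keratin KRT14 fell, to 45.9 and 64.2 CPM with TINCR-HA-FLAG against 108 and 125 CPM with the empty vector (edgeR adjusted p = 0.014). DESeq2 called KRT14 and also SFN, which was lower (log2 fold change -0.74, adjusted p = 0.0023). These were 2 of the 11 markers, beside 152 of the 18771 genes tested that DESeq2 called. Of 10 leukocyte markers 4 passed the filter, and the defining gene PTPRC had 6 and 3 counts with TINCR-HA-FLAG against 4 and 3 counts with the empty vector. The summed leukocyte markers were 11.9 and 15.1 CPM with TINCR-HA-FLAG and 13.1 and 15.3 CPM with the empty vector. CD14 and LYZ made up most of this leukocyte sum. CD14 had 105 and 201 counts with TINCR-HA-FLAG and 133 and 145 counts with the empty vector. LYZ had 61 and 84 counts with TINCR-HA-FLAG and 69 and 77 counts with the empty vector. The summed fibroblast markers (7 genes, 5 tested) were 51.04 and 51.3 CPM with TINCR-HA-FLAG and 46.2 and 42.1 CPM with the empty vector. The summed endothelial markers (5 genes, 2 tested) were 14.3 and 13.5 CPM with TINCR-HA-FLAG and 10.9 and 11.1 CPM with the empty vector. The fibroblast and endothelial sums were higher with TINCR-HA-FLAG in both libraries, and each rested mainly on 1 gene. COL1A1 had 33.6 and 33.6 CPM with TINCR-HA-FLAG and 26.9 and 24.01 CPM with the empty vector, while 3 of the 5 tested fibroblast markers had negative log2 fold changes. VWF had 13.2 and 12.3 CPM with TINCR-HA-FLAG and 9.11 and 10.4 CPM with the empty vector, while PECAM1 had 8 and 4 counts with TINCR-HA-FLAG and 7 and 5 counts with the empty vector. Their part in the results was not tested. CLEC4C, a marker of the plasmacytoid dendritic cells that secrete much type I interferon, had no count in either TINCR-HA-FLAG library and 0 and 2 counts with the empty vector. In bulk RNA a higher level per cell and more cells that express a gene cannot be told apart.

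IRF7 (ENSG00000185507.21; GRCh38 chromosome 11, 612553 to 615999, minus strand) encodes the interferon regulatory factor that amplifies interferon production. With TINCR-HA-FLAG it had 627 and 772 counts, and with the empty vector 326 and 329 counts. Scaled to library size this was 34.0 and 34.8 CPM with TINCR-HA-FLAG, against 19.0 and 19.4 CPM with the empty vector. Both TINCR-HA-FLAG libraries were above both empty vector libraries. The spread within each group was small, but 2 libraries measure a spread poorly. The means were 34.4 ± 0.53 CPM with TINCR-HA-FLAG and 19.2 ± 0.27 CPM with the empty vector (SD, n = 2 each). The log2 fold change was 0.84 with a standard error of 0.12, a 1.79-fold rise with a 95% interval of 1.49 to 2.16 (edgeR adjusted p = 0.016). DESeq2 also called it (log2 fold change 0.82, adjusted p = 0.0022). Leaving out each library in turn gave log2 fold changes of 0.79 to 0.86. Such a fit has 1 library in a group and takes its spread from the other group, so no p-value is given for it. Without any filter on low counts the edgeR adjusted p was 0.047. By size of change IRF7 stood at rank 991 among the 18771 genes tested, and most of the genes with larger changes did not pass the test. No exon of another gene overlaps the principal transcript of IRF7 in the annotation.

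IRF1 (ENSG00000125347.15; chromosome 5, 132481609 to 132490798, minus strand) encodes the founding member of the family and is the rapid target of interferon gamma. Its levels were 58.9 and 57.1 CPM with TINCR-HA-FLAG and 62.3 and 56.6 CPM with the empty vector. The values of the groups overlapped, and both TINCR-HA-FLAG libraries lay between the empty vector libraries. The fold was 0.98 with a 95% interval of 0.83 to 1.15 (edgeR adjusted p = 0.95). Reads of an antisense transcript could enter here if strand was ignored, since 16.2% of the principal IRF1 transcript lies in exons of other genes on the opposite strand.

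The promoters of these genes were searched for the sites that ISGF3 and STAT dimers bind. Windows of 250 bases before the annotated start were at hand for 7 of the 9 genes, 11 windows in all (RefSeq, GRCh38.p14), with IFNAR2 and IRF7 not among them. The windows were searched on both strands for TTCNNNGAA, the core of a GAS, and for a pair of GAAA half-sites with 2 bases between them, the core of an ISRE. The ISRE letters were in 0 of the 11 windows and in 3.02% of all 35116 windows of the same length. The GAS letters were in 2 of the 11 windows, those of IRF1 and IRF9, and in 6.57% of all windows. Both matches are printed with their flanks because no other window of the 9 genes held one, 5′ to 3′ on the strand of the gene, with the match in capitals. The IRF1 stretch lies at chr5:132490879-132490907 on the minus strand, its match 124 to 116 bases before the start. The IRF9 stretch lies at chr14:24161192-24161220 on the plus strand, its match 63 to 55 bases before the RefSeq start that the window belongs to. That start lies downstream of the GENCODE start of IRF9, so this stretch falls within the GENCODE span of the gene.
IRF1: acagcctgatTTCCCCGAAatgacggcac
IRF9: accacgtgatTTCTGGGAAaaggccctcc
A match is a description of these letters and not evidence of binding. The levels of the 2 genes that share it differed in spread and in size of change, with 1.58-fold for IRF9 and 0.98-fold for IRF1, and neither passed the test.

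IRF9 (ENSG00000213928.9; chromosome 14, 24161053 to 24166565, plus strand) encodes the DNA-binding part of ISGF3. With TINCR-HA-FLAG it had 133 and 102 counts, and with the empty vector 85 and 41 counts. These were 7.22 and 4.60 CPM with TINCR-HA-FLAG and 4.96 and 2.42 CPM with the empty vector, so the groups overlapped. The mean was 5.91 ± 1.86 CPM with TINCR-HA-FLAG and 3.69 ± 1.80 CPM with the empty vector (SD, n = 2 each). The fold of 1.58 had a 95% interval of 0.92 to 2.7 (edgeR adjusted p = 0.58), which holds both no change and a change larger than that of IRF7. The log2 fold change was 0.66 with all 4 libraries and between 0.24 and 1.23 when each library was left out. The whole principal transcript of IRF9, 1838 bases, lies in exons of a second protein-coding gene on the same strand. That gene held 24 and 20 counts with TINCR-HA-FLAG and 17 and 10 counts with the empty vector. How reads that fit both genes were counted is not given in the sources used here, so the low level of IRF9 is uncertain.

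STAT2 (ENSG00000170581.14; chromosome 12, 56341597 to 56360155, minus strand) encodes the STAT protein particular to the type I and type III interferon receptors. It had 85.0 and 76.1 CPM with TINCR-HA-FLAG and 78.7 and 68.2 CPM with the empty vector. The groups overlapped, and the range within each was wider than the gap between their means. The fold was 1.10 with a 95% interval of 0.92 to 1.31 (edgeR adjusted p = 0.78). JAK1 (ENSG00000162434.13; chromosome 1, 64833229 to 64966504, minus strand), the kinase shared by the receptors of interferons and of many interleukins, had 197 and 183 CPM with TINCR-HA-FLAG and 177 and 172 CPM with the empty vector. Both TINCR-HA-FLAG libraries were higher, by a small margin. Its fold was 1.09 with a 95% interval of 0.93 to 1.27 (edgeR adjusted p = 0.78).

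Of the receptor chains, 3 lie in one cluster on chromosome 21, in the order IFNAR2 (33229901 to 33265675), IFNAR1 (33324477 to 33359862) and IFNGR2 (33402896 to 33479348), all on the plus strand. Their changes were small and did not share a direction. IFNAR1 (ENSG00000142166.13), a chain of the type I receptor, had 154 and 164 CPM with TINCR-HA-FLAG and 141 and 147 CPM with the empty vector. Both TINCR-HA-FLAG libraries were above both empty vector libraries. The fold was 1.11 with a 95% interval of 0.95 to 1.30 (edgeR adjusted p = 0.71). IFNGR2 (ENSG00000159128.15), the chain of the gamma receptor that recruits its second kinase, went the other way. It had 45.9 and 48.5 CPM with TINCR-HA-FLAG and 53.4 and 57.8 CPM with the empty vector, and the groups did not overlap. The fold was 0.85 with a 95% interval of 0.72 to 1.0022 (edgeR adjusted p = 0.50, unadjusted p = 0.053), so the difference was not called. Of the principal IFNGR2 transcript, 8.96% lies in exons of a gene on the opposite strand, TMEM50B, whose reads could enter if strand was ignored. TMEM50B held 847 and 1081 counts with TINCR-HA-FLAG and 779 and 762 counts with the empty vector.

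IFNAR2 (ENSG00000159110.21), the chain that binds type I interferon most tightly, had few counts. They were 40 and 38 with TINCR-HA-FLAG and 33 and 38 with the empty vector, or 2.17 and 1.71 CPM with TINCR-HA-FLAG and 1.93 and 2.24 CPM with the empty vector. The groups overlapped. The fold was 0.92 with a 95% interval of 0.53 to 1.60 (edgeR adjusted p = 0.95), and at this depth a change of moderate size was not detectable. Of the 2899 bases of its principal transcript, 67.8% lie in exons of another gene on the same strand, which had 0 counts in every library. Exons of other genes on either strand hold 90.3% of these bases, so the level of IFNAR2 is also uncertain. IFNGR1 (ENSG00000027697.15; chromosome 6, 137197484 to 137219449, minus strand), the ligand-binding chain of the gamma receptor, had 77.7 and 79.7 CPM with TINCR-HA-FLAG and 74.3 and 80.3 CPM with the empty vector. Both TINCR-HA-FLAG libraries lay between the empty vector libraries. The fold was 1.02 with a 95% interval of 0.87 to 1.19 (edgeR adjusted p = 0.97).

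**Figure D2:**
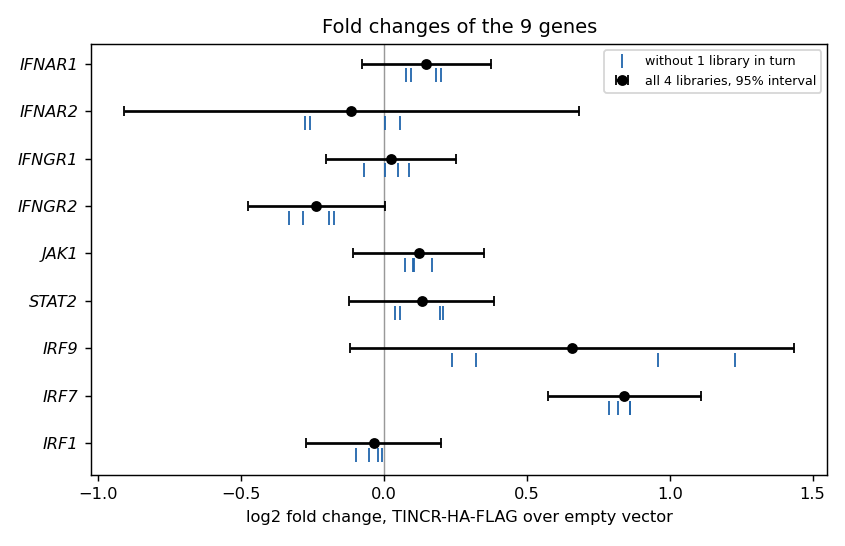
Log2 fold change of each gene, TINCR-HA-FLAG over empty vector, as a black point with its 95% interval from the edgeR fit, and as blue ticks without each library in turn. The interval of IRF7 lies wholly above 0, the ticks of IRF9 run between 0.24 and 1.23, and those of IFNAR2 and IFNGR1 fall on both sides of 0.

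Setting IFNAR2 and IRF9 aside, the 6 other genes that were not called had 95% intervals that together ran between 0.72-fold and 1.31-fold. Their levels were therefore fixed more closely than those of IFNAR2 and IRF9, and a rise of the size seen for IRF7 lay outside each of these 6 intervals. Adjusted p over the 8 genes that were not called ran between 0.50 and 0.97 (edgeR).

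Levels were compared between genes per length, as CPM per kb of the principal transcript. IFNGR1 and JAK1 were the most abundant, with 36.8 ± 0.66 and 37.7 ± 1.99 CPM per kb with TINCR-HA-FLAG and 36.1 ± 1.97 and 34.6 ± 0.73 CPM per kb with the empty vector (SD, n = 2 each). These 2 genes did not differ beyond their spread. IFNAR1, STAT2 and IFNGR2 followed, with 25.9, 24.7 and 21.2 CPM per kb with TINCR-HA-FLAG and 23.4, 22.5 and 25.04 CPM per kb with the empty vector, an order that changed between the groups. Over the 4 libraries the ranges of these 3 genes overlapped, and all lay above IRF1. IRF1 had 16.2 CPM per kb with TINCR-HA-FLAG and 16.6 CPM per kb with the empty vector. IRF7 had 16.8 ± 0.26 CPM per kb with TINCR-HA-FLAG and 9.37 ± 0.13 CPM per kb with the empty vector (SD, n = 2 each). On this length IRF7 was level with IRF1 in the TINCR-HA-FLAG libraries and below it in the empty vector libraries. The ratio of IRF7 to IRF1 per kb was 1.01 and 1.06 with TINCR-HA-FLAG and 0.53 and 0.60 with the empty vector. IRF9 had 3.22 CPM per kb with TINCR-HA-FLAG and 2.01 CPM per kb with the empty vector, and IFNAR2 had 0.67 CPM per kb with TINCR-HA-FLAG and 0.72 CPM per kb with the empty vector. With all annotated exons as the length, JAK1 was first, followed by IFNAR1 and IFNGR1, and IRF9 and IFNAR2 stayed last. On that length IRF7 had 13.1 CPM per kb with TINCR-HA-FLAG and 7.31 CPM per kb with the empty vector, and IRF1 had 7.44 CPM per kb with TINCR-HA-FLAG and 7.62 CPM per kb with the empty vector. The gap between IRF7 and IRF1 within a group thus depends on the length used, while the order of their means was the same on both lengths.

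**Figure D3:**
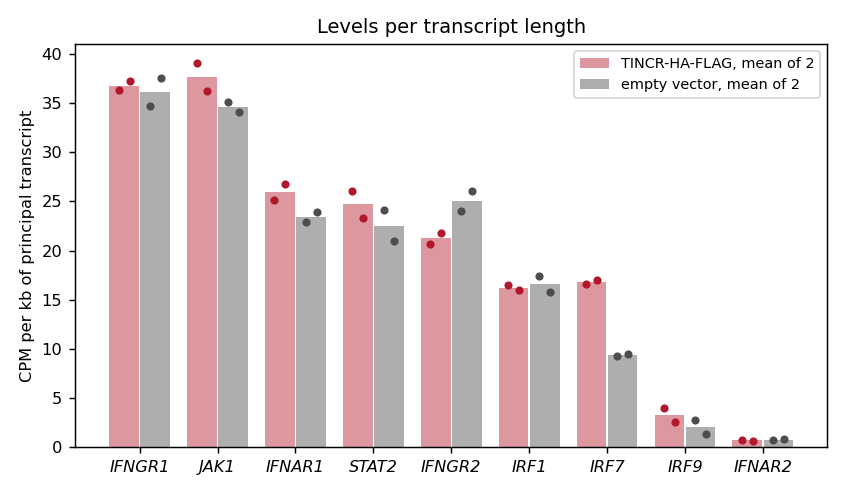
CPM per kb of principal transcript for the 9 genes, in order of their mean over 4 libraries, with bars at the mean of 2 libraries and points at each library, TINCR-HA-FLAG left of the empty vector. IRF7 has 16.8 CPM per kb with TINCR-HA-FLAG and 9.37 CPM per kb with the empty vector, while IRF1 has 16.2 CPM per kb with TINCR-HA-FLAG and 16.6 CPM per kb with the empty vector.

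As counted here, partner genes did not have equal levels per kb, but the levels of IFNAR2 and IRF9 are uncertain. The ratio of IFNAR1 to IFNAR2 per kb was 33.5 and 45.3 with TINCR-HA-FLAG and 34.5 and 30.9 with the empty vector, with the overlap of IFNAR2 named above. IFNGR1 stood to IFNGR2 at 1.76 and 1.71 with TINCR-HA-FLAG and at 1.44 and 1.44 with the empty vector. STAT2 stood to IRF9 at 6.64 and 9.33 with TINCR-HA-FLAG and at 8.94 and 15.9 with the empty vector. The gamma receptor ratio was higher in both TINCR-HA-FLAG libraries, and the other 2 ratios overlapped between the groups. These ratios are descriptions and were not tested. The overlaps named above for IFNGR2 and IRF9 bear on their ratios too.

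The genes around these 9 were followed through lists of the pathway. Interferon genes themselves were almost silent: of 13 ligand genes, only IFNE, an epithelial type I interferon, passed the filter. It had 27 and 13 counts with TINCR-HA-FLAG and 12 and 5 counts with the empty vector. Scaled to library size these were 1.47 and 0.59 CPM with TINCR-HA-FLAG and 0.70 and 0.29 CPM with the empty vector, which overlapped (edgeR adjusted p = 0.71). The interferon beta gene IFNB1 had 0 and 1 counts with TINCR-HA-FLAG and no count in either empty vector library. No member was called by edgeR or DESeq2 among the 5 tested further receptor chains of the interferon lambda and interleukin 10 family, the 3 other Janus kinases, the 6 other STAT factors and the 4 tested further IRF factors. Each of these 4 lists held 1 gene with an unadjusted edgeR p below 0.05, where 10.2% of all genes tested had one. Their medians were -0.16, 0.10, 0.097 and 0.051 on the log2 scale. In the same order, log2 fold changes ran between -0.67 and 0.76, 0.088 and 1.02, -0.24 and 0.40, and -0.064 and 0.38. The groups did not overlap for 2, 2, 3 and 1 genes of these lists, beside 39.6% of all genes tested. Of those, 1, 2, 2 and 1 were higher with TINCR-HA-FLAG, beside 21.7% of all genes tested. IFNLR1, the chain that binds interferon lambda, had 10.05 and 13.1 CPM with TINCR-HA-FLAG and 12.03 and 12.2 CPM with the empty vector, and IL20RA, a chain of interleukin receptors, had 3.69 and 4.33 CPM with TINCR-HA-FLAG and 2.10 and 2.65 CPM with the empty vector. IRF5, which acts downstream of Toll-like receptors, had 36.7 and 38.6 CPM with TINCR-HA-FLAG and 37.2 and 41.5 CPM with the empty vector, and the groups overlapped. IRF2, which competes with IRF1 for its sites, was the IRF gene with an unadjusted p below 0.05. It had 29.9 and 33.5 CPM with TINCR-HA-FLAG and 23.4 and 25.4 CPM with the empty vector, without overlap (log2 fold change 0.38, edgeR adjusted p = 0.32). IRF2 was named after its value was seen.

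Activators upstream of IRF7, such as the adaptor MAVS and the Toll-like receptor pathway, were not called either. Of 19 tested, 13 had positive and 6 negative log2 fold changes with a median of 0.088. An unadjusted edgeR p under 0.05 was found for 4, where 10.2% of all genes tested had one. Most of these 4 were lower with TINCR-HA-FLAG. The groups did not overlap for 14 of the 19, 9 higher and 5 lower, beside 21.7% and 17.9% of all genes tested. MAVS itself had 165 and 171 CPM with TINCR-HA-FLAG and 154 and 151 CPM with the empty vector (edgeR adjusted p = 0.72). IRAK1, a kinase downstream of Toll-like receptors, had 128 and 166 CPM with TINCR-HA-FLAG and 181 and 193 CPM with the empty vector (edgeR adjusted p = 0.39). Among negative regulators of the pathway, such as the SOCS family, 12 of 22 were positive and 10 negative, with a median of 0.041. A few genes of this list are also counted among the interferon target genes described below. In this list 1 gene had an unadjusted edgeR p under 0.05, and 7 did not overlap, 3 higher and 4 lower. Of 8 tested receptors of other cytokines that also use JAK1, 6 were negative, with a median of -0.20. An unadjusted edgeR p under 0.05 was found for 2 of them, again beside 10.2% of all genes tested. The groups did not overlap for 5 of the 8, all lower with TINCR-HA-FLAG, beside 17.9% of all genes tested. OSMR, the oncostatin M receptor chain, had 117 and 112 CPM with TINCR-HA-FLAG and 146 and 149.9 CPM with the empty vector (edgeR adjusted p = 0.196). Neither edgeR nor DESeq2 called a gene in these 3 lists, where edgeR called 0.549% of all genes tested.

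Target genes of the 2 arms were set beside the factors. Of 40 tested type I interferon target genes, 5 were called higher and none lower (12.5% called, beside 0.549% of all genes tested, and 6 by DESeq2), with 37 positive and 3 negative and a median log2 fold change of 0.31. An unadjusted edgeR p under 0.05 was found for 21 of the 40, where 10.2% of all genes tested had one. The groups did not overlap for 30 of them, all higher with TINCR-HA-FLAG, beside 21.7% of all genes tested. The 5 were IFI27, ISG20, OAS2, IFI44L and MX1, with log2 fold changes between 0.98 and 1.49. IFI27 had the largest, at 127 and 142 CPM with TINCR-HA-FLAG and 47.5 and 48.1 CPM with the empty vector (edgeR adjusted p = 0.00027). MX1, an antiviral GTPase, had 52.02 and 52.5 CPM with TINCR-HA-FLAG and 25.04 and 27.96 CPM with the empty vector (edgeR adjusted p = 0.0047), and was named after its value was seen. IFI44L, a gene of the antiviral response, had the weakest call (edgeR adjusted p = 0.044), which was lost when no filter on low counts was applied (adjusted p = 0.090) and when 2 libraries had to reach 1 CPM (adjusted p = 0.054). Of 23 tested targets of interferon gamma, IRF1 and GAS sites, none was called by edgeR or DESeq2, where edgeR called 0.549% of all genes tested. Among the 23, 17 were positive and 6 negative, with a median of 0.14. An unadjusted edgeR p under 0.05 was found for 7, again beside 10.2% of all genes tested. The groups did not overlap for 13 of the 23, 11 higher and 2 lower with TINCR-HA-FLAG, beside 21.7% and 17.9% of all genes tested. The lowest edgeR adjusted p in this list was 0.079. The difference between the 2 lists of targets was not tested, and both were compiled with earlier results of these data known.

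**Figure D4:**
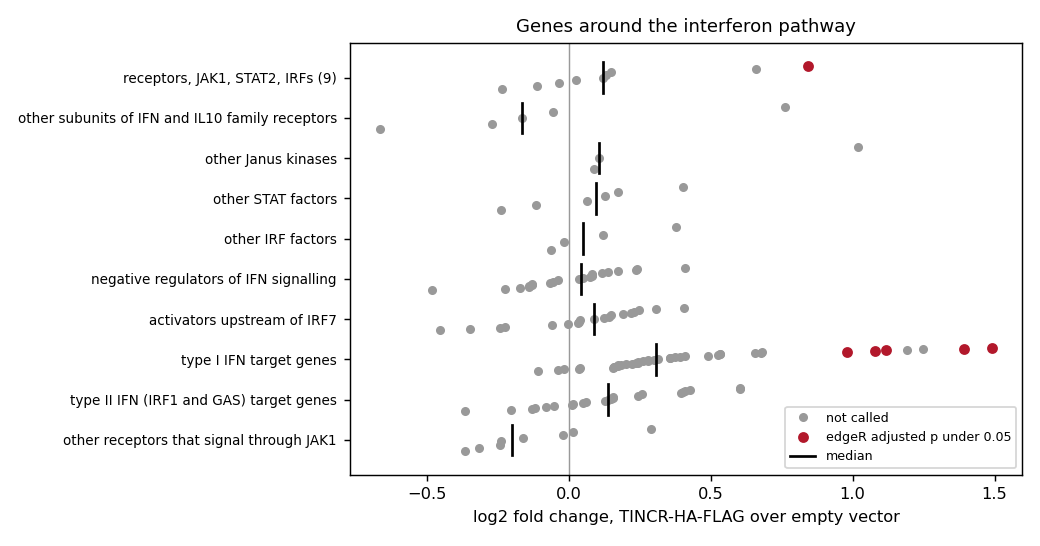
Log2 fold changes, TINCR-HA-FLAG over empty vector, of the tested genes in each pathway list except the interferon ligands. Each gene is 1 point in every list that holds it, red where the edgeR adjusted p is under 0.05. A black line marks the list's median, and vertical offsets are for legibility only. Red points are IRF7 among the 9 genes and 5 type I interferon targets, and no other list holds one.

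Genes whose pattern over the 4 libraries was most like that of IRF7 were sought by the distance between log2 CPM values after each gene's mean was subtracted. Of 11736 genes compared, those whose mean log2 CPM was 2 or more, the nearest were MYEOV (distance 0.053), SLC13A3 (0.064) and PYGO1 (0.089). MYEOV, a gene named for its overexpression in myeloma, had 52.1 and 53.5 CPM with TINCR-HA-FLAG and 28.49 and 28.55 CPM with the empty vector (log2 fold change 0.89, edgeR adjusted p = 0.0061). SLC13A3, which encodes a dicarboxylate transporter, and PYGO1, a cofactor of Wnt signalling, had log2 fold changes of 0.87 and 0.85 but did not pass the test (edgeR adjusted p = 0.074 and 0.20). None of the 3 was in a pathway list, and 4 libraries in 2 groups leave many genes with a like pattern.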

How the data were processed

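The authors deposited raw counts, whole numbers for each Ensembl gene, with no normalization. Named in the submitters' processing notes, with no role for any of them, are the build GRCh38 and the tools STAR 2.7.9a, DESeq2 1.32.0 and bcl2fastq 2.20.0.422. How reads were counted, whether by strand and with which annotation, is not given in the sources used here. Per the labels' protocols, RNeasy columns and a NEBNext Ultra library kit were used. A further 12 library columns could be matched to none of the 4 samples and were not analysed here. Of these, 4 carry the FaDu and construct names with other replicate numbers. Column headers write TINCR where the titles give a longer construct name, so the match rests on cell line, construct name and number. Symbols came from a reference table (60507 rows matched) and positions, exon lengths and overlaps from GENCODE on GRCh38.

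Counts were normalized by TMM, filtered with filterByExpr at default settings (18771 genes) and tested with edgeR 4.0.16 (robust quasi-likelihood test, non-legacy dispersion, R 4.3.3), the 4 libraries leaving 2 residual degrees of freedom. Adjustment of p followed Benjamini and Hochberg, over all genes tested, at a threshold of 0.05. Intervals at 95% come from the same fit. The procedure was tested on simulated data. DESeq2 1.42.0 and other scalings, filters and left-out libraries were alternatives. The members and lists were chosen with earlier results of these data known. All 9 members are named. From each list up to 4 called genes were to be named, or the 2 most expressed where none was called, and the 3 genes nearest to each called member. Some genes that this rule takes are not reported here, and lists without a call are given mostly by counts. RARRES3 was matched by its newer symbol.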

Additional observations from a re-analysis of the deposited data

How the results depend on the processing

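IRF7 stayed higher under all 11 alternatives, with log2 fold changes of 0.79 to 0.86, and stayed called wherever all 4 libraries were used. With all 4 libraries, the number of members called was 1 higher and 0 lower under each alternative except the replicate block. When no filter on low counts was applied, 47 genes were higher and 6 lower, against 85 and 18, and DESeq2 called 44 lower. Without each library in turn the count was 69 to 226 higher and 45 to 160 lower, the highest of both without TINCR-HA-FLAG replicate 2 (171 and 61 without replicate 1, and 55 and 45 lower without empty vector replicates 1 and 2), with the lone library assumed to vary like the other group. IFNAR2 then ran between -0.28 and 0.054 on the log2 scale (0.0044 without empty vector replicate 2) and IFNGR1 between -0.069 and 0.087, so their signs were not stable. The cause was not tested. With the replicate number as a block, 1317 genes were higher and 1316 lower, and 2 members were higher and 1 lower: IRF7, IRF9 (log2 fold change 0.69, adjusted p = 0.019) and IFNGR2 (-0.24, adjusted p = 0.021). Deviations of same-numbered libraries correlated across genes at 0.37, but the labels do not say that a number marks shared material, so the block is no basis for a call. IFNAR2 and IRF9 had the lowest counts of the 9 genes and the widest intervals.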
